A study of Mus musculus with 9 samples.

Results

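The 10 members of the Sox family described here were Sox1, Sox2, Sox3, Sox4, Sox9, Sox11, Sox12, Sox13, Sox15 and Sox21, chosen by symbol from the 23453 genes of a count table covering 9 mouse RNA-seq libraries. The libraries came from 3 cell states with 3 libraries each. EpiLC were epiblast-like cells made from naive embryonic stem cells by 48 h in N2B27 medium with Activin A, FGF2 and 1% knockout serum replacement. From EpiLC, aEpiLC were obtained by a further 24 h in N2B27 with neither Activin A nor FGF2, and pEpiLC by a further 24 h with 20 ng/ml Activin A and 3 µM CHIR99021, an agonist of WNT signalling. The study's methods add 1% knockout serum replacement to both derivative media and name no FGF2 in either, so each comparison with EpiLC includes the loss of FGF2 and a later time. All 3 states were wild-type cells that had passed through the same EpiLC step, and the labels name neither separate cultures nor batches, so p-values measure only the spread between these libraries. The comparison of pEpiLC with aEpiLC asked how the family differed between the primitive streak-like (posterior) and the anterior, neural-directed derivative, and the comparisons with EpiLC asked how each derivative differed from its source.

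SOX proteins are transcription factors that bind and bend DNA through a shared HMG box, and most act at enhancers together with a partner factor. Of the SOXB1 proteins, SOX2 and SOX3 are present in pluripotent epiblast and in neural progenitors and are lost as epiblast cells enter the primitive streak, and SOX1 appears at neural induction. In pluripotent cells SOX2 pairs with the POU factor OCT4, the product of Pou5f1. SOXB2 proteins such as SOX21 act against SOXB1 as repressors, the SOXC proteins SOX4, SOX11 and SOX12 act in progenitors and differentiating neurons, and SOX9 of the SOXE group acts in endoderm, cartilage, glia and neural crest. SOX13 belongs to the SOXD group, whose members dimerise and lack a transactivation domain, and SOX15 is the lone mouse member of the SOXG group.

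The promoters of 3 members are shown because these genes stood for the main patterns across the states: Sox2 and Sox4 moved in opposite directions from EpiLC in aEpiLC and pEpiLC, and Sox15 was highest in EpiLC. The RefSeq promoter table held 8 of the 10 members, without Sox3 and Sox9. Each sequence is the 250 bases before the RefSeq start on GRCm38.p6, read on the strand of the gene, with motif matches on either strand in capitals. The motifs searched were the letters ACAAT for a SOX core and TCAAAG for a TCF/LEF core. The CCAAT box was searched by its own letters and the TATA box as TATAAA. No capitals of different motifs overlap in these windows.
Sox2: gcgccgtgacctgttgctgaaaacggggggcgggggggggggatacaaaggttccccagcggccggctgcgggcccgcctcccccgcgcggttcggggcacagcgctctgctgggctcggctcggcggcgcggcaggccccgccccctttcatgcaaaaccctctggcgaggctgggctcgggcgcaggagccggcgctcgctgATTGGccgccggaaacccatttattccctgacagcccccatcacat
Sox4: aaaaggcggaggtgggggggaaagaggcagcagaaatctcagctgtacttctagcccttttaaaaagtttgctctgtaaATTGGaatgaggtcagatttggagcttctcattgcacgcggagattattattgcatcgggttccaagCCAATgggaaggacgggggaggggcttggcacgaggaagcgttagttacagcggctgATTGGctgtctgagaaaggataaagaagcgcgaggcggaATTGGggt
Sox15: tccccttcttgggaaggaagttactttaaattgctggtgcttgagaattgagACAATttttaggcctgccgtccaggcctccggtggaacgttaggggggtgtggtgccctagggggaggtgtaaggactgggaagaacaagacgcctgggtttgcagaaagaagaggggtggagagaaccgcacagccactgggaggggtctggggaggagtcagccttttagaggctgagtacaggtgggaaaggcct

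The Sox2 window lies at chr3:34649745-34649994 on the plus strand, the Sox4 window at chr13:28953700-28953949 on the minus strand and the Sox15 window at chr11:69654787-69655036 on the plus strand. The Sox2 and Sox15 windows end before the GENCODE starts of these genes, at 34650405 and 69655314, so distances here refer to RefSeq starts. Sox2 held 1 CCAAT box 46 bases before its RefSeq start and Sox4 held 4 of them, whereas a CCAAT box occurred in 33.8% of all 32851 promoters. Sox15 held 1 SOX core, a motif present in 27.7% of promoters, and the window of Sox13, not printed, held none of the searched motifs. Of the 8 windows, Sox12 held 35, Sox13 31, Sox1 29 and Sox2 27 CpG against a median of 6, and 91.4% of all promoters held fewer than Sox2. Sox11 and Sox21 held 17 each, Sox4 held 11 and Sox15 held 5. Among the other members, Sox1, Sox11 and Sox12 held 1 CCAAT box each and Sox21 held 1 TCF/LEF core, a motif found in 13.8% of promoters. The TATA box, present in 12.4% of promoters, was found in none of the 8 windows. These matches describe letters and are not evidence of binding.

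Library totals ran from 20560564 to 23417917 estimated counts with a median of 21675291, and 3 counts, used here as the detection floor, corresponded to 0.130 to 0.143 CPM (counts relative to the TMM-scaled library total). The 6 epiblast markers Fgf5, Otx2, Pou3f1, Dnmt3b, Pou5f1 and Dnmt3a exceeded the floor in all 9 libraries. They summed to 4557 to 4859 CPM in EpiLC, 4100 to 4344 in aEpiLC and 1893 to 3182 in pEpiLC, where Otx2, Pou3f1, Dnmt3b and Dnmt3a fell and Fgf5 rose relative to both other states, also without pEpiLC replicate 1. Replicate 1 of pEpiLC stood apart: 324 and 333 genes differed by more than 4-fold between it and replicates 2 and 3, whereas 66 differed between the latter, and 57 to 76 within the other states. It held 1087 CPM of T (Brachyury, a primitive streak factor) against 204 and 219, and 976 counts of Gata6, an endoderm factor, against 2 and 3. The members' tests involving pEpiLC are therefore given with and without this library.

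Relative to aEpiLC, pEpiLC had less RNA of 5 Sox members and more of none (edgeR quasi-likelihood test, Benjamini-Hochberg adjusted p under 0.05, the limit for "rose" and "fell" throughout). Of the 8 members tested, Sox2, Sox3, Sox4, Sox12 and Sox13 fell, whereas 9.30% of all 15198 genes tested fell and 6.28% rose. With an added limit of a 2-fold change, 4 members were lower (Sox2, Sox3, Sox4 and Sox13) beside a background of 4.74% lower and 2.55% higher. The median log2 fold change was -1.23 over the 8 members and 0.01 over all genes. Leaving out aEpiLC replicate 3 left 3 members that changed, and leaving out pEpiLC replicate 1 gave 6, of which 5 by 2-fold or more, with a median of -1.21. In bulk RNA, fewer cells of a type and less RNA per cell cannot be told apart, which holds for every level given here.

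From EpiLC to aEpiLC the members went both ways. Sox2, Sox4 and Sox13 rose and Sox12 and Sox15 fell among 8 tested, with background shares of 24.0% of genes rising and 22.6% falling. At a change of 2-fold or more, Sox13 was higher (background 7.25%) and Sox15 lower (background 5.24%). The members' median log2 fold change was 0.15, against 0.00 over all genes.

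From EpiLC to pEpiLC, 6 of 9 members tested fell (Sox1, Sox2, Sox3, Sox4, Sox12 and Sox15) and Sox11 alone rose, with background shares of 21.4% and 22.8%. At 2-fold or more, Sox1, Sox2, Sox3 and Sox15 were lower (background 8.13%) and no member was higher (background 7.71%). The median was -0.79 over the members and 0.02 over all genes. Without pEpiLC replicate 1, 7 members changed, 4 of them by 2-fold or more, with a median of -0.87. Without EpiLC replicate 2, 4 members changed and 2 did so by 2-fold or more. Both comparisons with EpiLC use the same 3 EpiLC libraries, so they are not independent of each other.

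**Figure D1:**
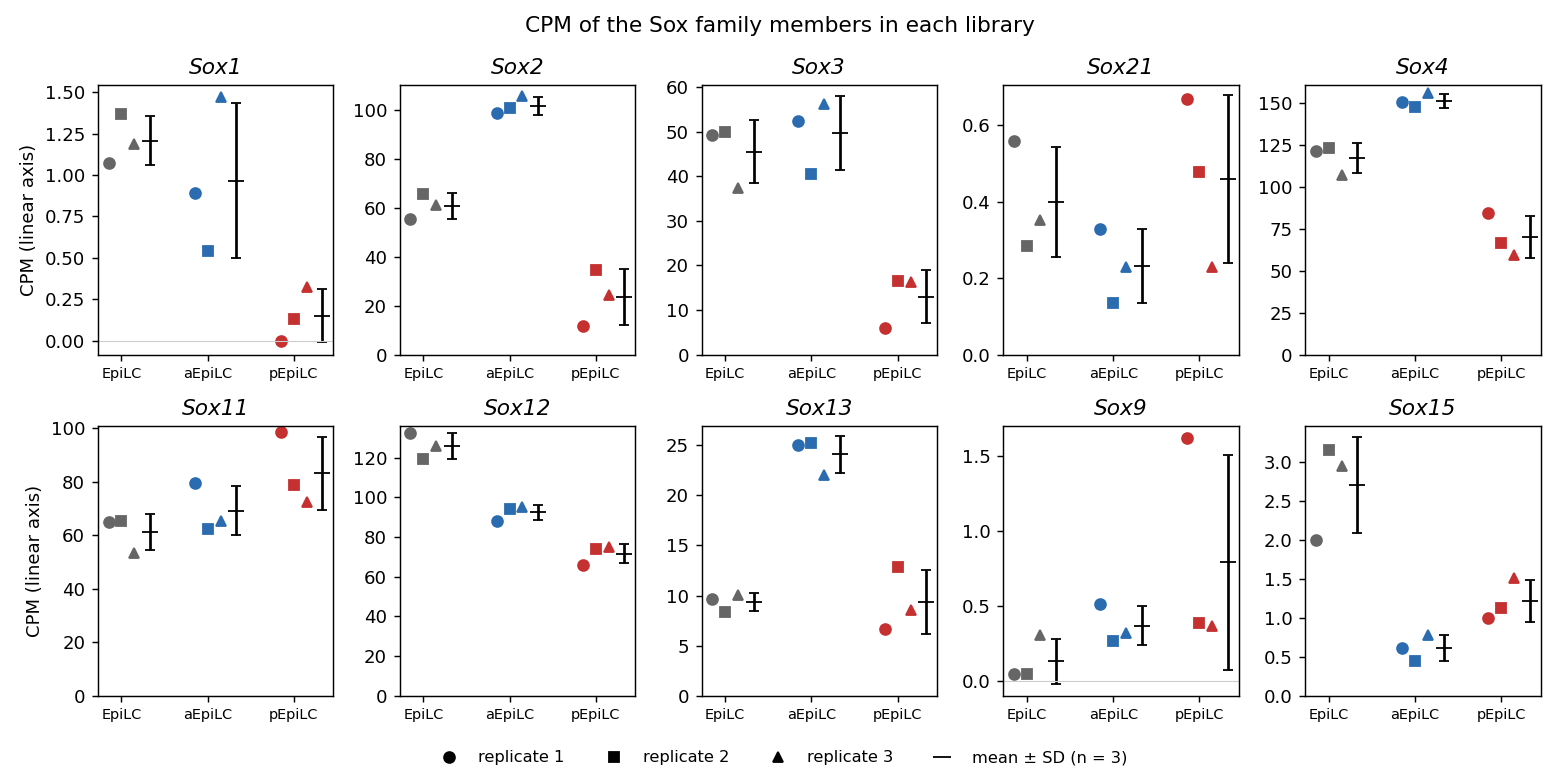
Level of each Sox member in every library, in CPM on linear axes that differ between panels, by cell state. Symbols are single libraries (circle, square and triangle for replicates 1, 2 and 3), and the bars beside them are the mean ± SD (n = 3). Sox2 is highest in aEpiLC (98.4 to 105 CPM) and lowest in pEpiLC (11.6 to 34.5 CPM), and Sox11 varies least between states.

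Sox2, a pluripotency and neural progenitor factor with a single exon at chr3:34650405-34652461 on the plus strand (ENSMUSG00000074637.7), gave 55.2, 65.7 and 61.0 CPM in EpiLC. The aEpiLC libraries gave 98.4, 101 and 105 CPM and the pEpiLC libraries 11.6, 34.5 and 24.4 CPM. The 3 states did not overlap, with every aEpiLC library above and every pEpiLC library below the EpiLC range. Sox2 rose by 0.75 on the log2 scale from EpiLC to aEpiLC (SE 0.0717, adjusted p = 2.50e-06), a 1.68-fold difference. It was 4.32-fold lower in pEpiLC than in aEpiLC (log2 fold change -2.11, SE 0.324, adjusted p = 0.00611) and 2.54-fold lower than in EpiLC (-1.34, SE 0.326, adjusted p = 0.0133). The pEpiLC libraries spread widely, and replicate 1 held 2.54-fold less Sox2 than the mean of replicates 2 and 3. Without that library the log2 differences were -1.78 (adjusted p = 1.06e-06) and -1.01 (adjusted p = 4.84e-06). The fall from EpiLC missed the limit without EpiLC replicate 2 (adjusted p = 0.0528), as did the rise in aEpiLC when all 9 libraries shared 1 fit (0.0520).

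Sox3, the X-linked SOXB1 member (ENSMUSG00000045179.9, 1 exon, chrX:60891366-60893430, minus strand), was not shown to change between EpiLC and aEpiLC. It gave 49.3, 49.8 and 37.4 CPM in EpiLC and 52.3, 40.4 and 56.2 CPM in aEpiLC, and these ranges overlapped. The log2 difference was 0.13 with a 95% interval from -0.14 to 0.40 (adjusted p = 0.414). In pEpiLC the libraries gave 6.05, 16.6 and 16.4 CPM, all below both other states. Sox3 was 3.81-fold lower in pEpiLC than in aEpiLC (log2 fold change -1.93, SE 0.341, adjusted p = 0.0108) and 3.44-fold lower than in EpiLC (-1.78, SE 0.339, adjusted p = 0.00498). Without pEpiLC replicate 1 these log2 differences were -1.59 and -1.44, and without aEpiLC replicate 3 the first missed the limit (adjusted p = 0.0546). The ratio of Sox2 to Sox3 CPM was 1.12, 1.32 and 1.63 in EpiLC, 1.88, 2.49 and 1.87 in aEpiLC, and 1.91, 2.08 and 1.49 in pEpiLC. The ratio in every aEpiLC library thus exceeded that in every EpiLC library, while pEpiLC overlapped both.

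Sox1, the SOXB1 member that marks committed neural ectoderm (ENSMUSG00000096014.1, 1 exon, chr8:12395295-12400126, plus strand), was low in every state. Its counts were 23, 29 and 27 in EpiLC, 19, 12 and 32 in aEpiLC, and 0, 3 and 7 in pEpiLC. The aEpiLC libraries straddled the EpiLC range (log2 difference -0.32, 95% interval -1.11 to 0.47, adjusted p = 0.503). No gain of Sox1 over EpiLC was thus detectable at this depth after 24 h without Activin A and FGF2. By quantitative RT-PCR, a different measure, the study reports induction of Sox1 in aEpiLC, and its reference state may differ from the EpiLC used here. Sox1 fell in pEpiLC relative to EpiLC (log2 fold change -2.92, SE 0.650, adjusted p = 0.00939). This value was -4.02 without pEpiLC replicate 3, and -2.38 (adjusted p = 0.00114) without replicate 1. Against aEpiLC the libraries did not overlap, but the test missed the limit (-2.63, 95% interval -4.39 to -0.86, adjusted p = 0.0554). It was passed without pEpiLC replicate 1 (log2 difference -2.07, adjusted p = 0.0325) or 3 (-3.73, adjusted p = 0.0482), and adjusted p ranged from 0.00149 to 0.187 over 12 alternatives. In each test with pEpiLC, Sox1 passed the count filter through the other state, where it was higher, so these p-values carry that selection.

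Sox21, the SOXB2 antagonist of SOXB1 proteins (ENSMUSG00000061517.8, chr14:118233232-118237030, minus strand), was detected at a similarly low level. Rounded counts were 12, 6 and 8 in EpiLC, 7, 3 and 5 in aEpiLC and 14, 11 and 5 in pEpiLC, with overlap between all states. Only the comparison of pEpiLC with EpiLC passed the count filter, and gave a log2 difference of 0.22 with a wide interval from -0.92 to 1.37 (adjusted p = 0.740), or -0.13 without pEpiLC replicate 1 (adjusted p = 0.868). Its exons share 713 bases (18.8%) with Gm4675, a noncoding gene on the opposite strand that held 0 to 5 counts per library. Whether the counting used strand is not given in the sources used here.

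The SOXC genes did not share a direction. Sox4 (ENSMUSG00000076431.4, 1 exon, chr13:28948919-28953713, minus strand), which acts in progenitors and in cells leaving the epithelium, gave 121, 123 and 107 CPM in EpiLC and 151, 147 and 156 CPM in aEpiLC. The pEpiLC libraries gave 84.2, 66.5 and 59.6 CPM. As for Sox2, the 3 states were separated without overlap. Sox4 rose in aEpiLC (log2 fold change 0.37, SE 0.0654, adjusted p = 0.000459) and fell in pEpiLC, both from EpiLC (-0.72, SE 0.127, adjusted p = 0.00371) and relative to aEpiLC (-1.11, SE 0.123, adjusted p = 0.00151). In contrast to Sox2, pEpiLC replicate 1 was the highest of its state for Sox4, and without it the difference was -1.26 from aEpiLC and -0.87 from EpiLC. The exons of Sox4 share 2616 bases (54.6%) with Gm26735, a noncoding gene on the opposite strand that was not analysed here, so reads of that stretch cannot be assigned with certainty.

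Sox12 (ENSMUSG00000051817.8, chr2:152393611-152398063, minus strand), the SOXC member with the weakest known activity, was highest in EpiLC and lower in both derivatives. It gave 133, 119 and 126 CPM in EpiLC, 88.2, 94.2 and 95.2 CPM in aEpiLC, and 66.1, 74.1 and 74.9 CPM in pEpiLC. Both derivatives lay below EpiLC without overlap, and pEpiLC below aEpiLC. Sox12 fell by 0.44 on the log2 scale to aEpiLC (SE 0.0633, adjusted p = 8.41e-05) and by 0.79 to pEpiLC (SE 0.0712, adjusted p = 0.000267). The smaller difference of pEpiLC from aEpiLC (-0.37, SE 0.0738, adjusted p = 0.0167) missed the limit without aEpiLC replicate 2 (0.0799) or 3 (0.0715). Without pEpiLC replicate 1 the differences of pEpiLC from EpiLC and aEpiLC were -0.73 and -0.31, and both passed.

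Sox11 (ENSMUSG00000063632.6, 1 exon, chr12:27334264-27342574, minus strand), a factor of neuronal differentiation, gave 65.0, 65.2 and 53.5 CPM in EpiLC. The values were 79.4, 62.2 and 65.4 CPM in aEpiLC and 98.4, 78.7 and 72.2 CPM in pEpiLC. It was the one member to rise in pEpiLC relative to EpiLC (log2 fold change 0.46, SE 0.130, adjusted p = 0.0226), with all 3 libraries above the EpiLC range. The rise was lost when EpiLC replicate 1, 2 or 3 was left out (adjusted p = 0.0518, 0.0533 and 0.0852), and without pEpiLC replicate 1 it was 0.33 (adjusted p = 0.00424). Between pEpiLC and aEpiLC the ranges overlapped (0.27, 95% interval -0.05 to 0.59, adjusted p = 0.232, or 0.14 without pEpiLC replicate 1), as they did between aEpiLC and EpiLC (0.18, -0.03 to 0.39, adjusted p = 0.157).

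Sox13, the SOXD member (ENSMUSG00000070643.11, chr1:133382303-133424377, minus strand, 5 annotated transcripts), had the largest rise in aEpiLC among the 8 members tested. The aEpiLC libraries gave 25.1, 25.2 and 22.0 CPM, above the 9.70, 8.39 and 10.1 CPM of EpiLC and the 6.67, 12.9 and 8.55 CPM of pEpiLC. Sox13 was 2.57-fold higher in aEpiLC than in EpiLC (log2 fold change 1.36, SE 0.111, adjusted p = 5.60e-07). It was lower in pEpiLC than in aEpiLC by the same factor (-1.36, SE 0.224, adjusted p = 0.00813), or by -1.16 without pEpiLC replicate 1 (adjusted p = 0.000294). Between pEpiLC and EpiLC the ranges overlapped and the log2 difference was 0.02, with an interval from -0.53 to 0.57 (adjusted p = 0.953), or 0.22 without pEpiLC replicate 1 (adjusted p = 0.288).

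Sox15 (ENSMUSG00000041287.5, chr11:69655314-69656727, plus strand), the SOXG member known from mouse embryonic stem cells, was low and highest in EpiLC. Counts were 43, 67 and 67 in EpiLC, 13, 10 and 17 in aEpiLC and 21, 26 and 33 in pEpiLC, so that the 3 states were separated with aEpiLC lowest. Sox15 was 4.37-fold lower in aEpiLC than in EpiLC (log2 fold change -2.13, SE 0.311, adjusted p = 0.000101) and 2.18-fold lower in pEpiLC (-1.13, SE 0.282, adjusted p = 0.0151). The latter missed the limit without EpiLC replicate 2 (0.0641) or 3 (0.0606). The difference between pEpiLC and aEpiLC was 0.98 with an interval from 0.20 to 1.76 (adjusted p = 0.0914) and did not pass. Without pEpiLC replicate 1 it was 1.11 (adjusted p = 0.0676), and the fall from EpiLC passed (adjusted p = 0.0102). The exons of Sox15 share 31 bases (3.60%) with Mpdu1 on the opposite strand, and Mpdu1 held 1122 to 1534 counts per library.

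Sox9, the SOXE factor of endoderm and neural crest (ENSMUSG00000000567.5, 3 exons, chr11:112782224-112787760, plus strand), was too low to be tested. Its counts were 1, 1 and 7 in EpiLC, 11, 6 and 7 in aEpiLC, and 34, 9 and 8 in pEpiLC. The high value belonged to pEpiLC replicate 1, the library with 4.27-fold more Sox9 than the mean of replicates 2 and 3, which themselves lay within the aEpiLC range.

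**Figure D2:**
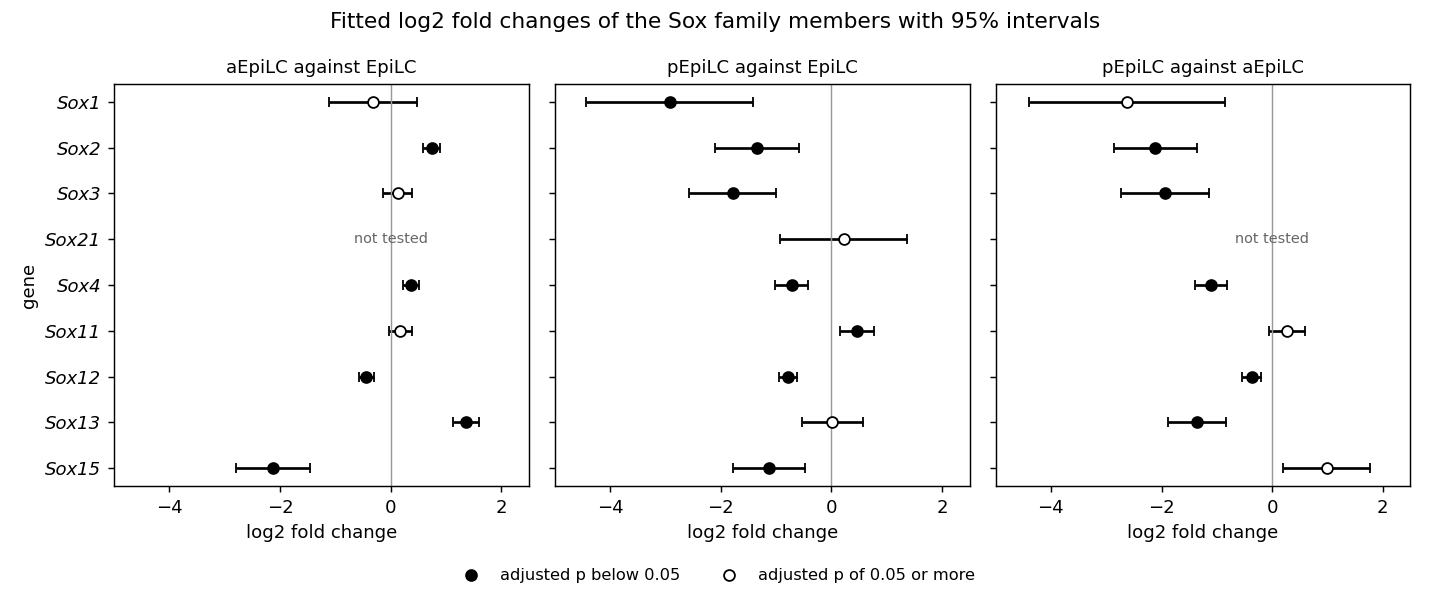
Log2 fold change of each tested member in the 3 comparisons, with 95% intervals from the edgeR fits of 6 libraries each. Filled points have an adjusted p below 0.05 and Sox9 was not tested. Sox2 (0.75, then -1.34) and Sox4 (0.37, then -0.72) lie on opposite sides of 0 in aEpiLC and pEpiLC relative to EpiLC.

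Divided by the exonic length in GENCODE, levels can be ranked between members. The ranks and shares hold only if the counting used the same exons, and its annotation is not given. The RefSeq start of Sox2 lies upstream of its GENCODE start, so close ranks, such as Sox2 and Sox12 in EpiLC, are uncertain. In EpiLC, Sox2 (29.5 ± 2.55 CPM per kb, SD, n = 3) and Sox12 (28.3 ± 1.48) led and overlapped, followed by Sox4 (24.5 ± 1.83) and Sox3 (22.0 ± 3.41), which also overlapped. Sox11 was at 7.37, Sox15 at 3.14 and Sox13 at 2.18 CPM per kb, and Sox1, Sox21 and Sox9 were at 0.250 or lower. In aEpiLC, Sox2 stood alone at 49.3 ± 1.71 CPM per kb, above Sox4 at 31.6 ± 0.885, while Sox3 (24.0 ± 3.99) and Sox12 (20.8 ± 0.849) overlapped. The order of the low members also changed there, with Sox13 at 5.58 CPM per kb and Sox15 at 0.713. In pEpiLC the top rank was not resolved: Sox12 (16.1 ± 1.10), Sox4 (14.6 ± 2.65), Sox2 (11.4 ± 5.57) and Sox11 (8.69 to 11.8) overlapped from one to the next, and Sox3 followed at 6.29 ± 2.91.

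The 10 members together gave 117 ± 5.81 CPM per kb in EpiLC, 141 ± 6.09 in aEpiLC and 62.3 ± 6.64 in pEpiLC (SD, n = 3), with no overlap between states. The make-up of that sum differed too. SOXB1 genes held 44.1% ± 1.70 of it in EpiLC and 52.3% ± 1.35 in aEpiLC, and 15.3%, 35.8% and 32.2% in the 3 pEpiLC libraries. The SOXC share was 51.3% ± 1.88 in EpiLC and 43.1% ± 1.03 in aEpiLC, and 78.9%, 57.7% and 61.5% in the pEpiLC libraries. In level, SOXC genes held 60.1 ± 2.93 CPM per kb in EpiLC and 60.6 ± 1.18 in aEpiLC, with Sox4 higher and Sox12 lower in the latter. SOXB1 genes held 51.7 ± 4.24 and 73.6 ± 5.07 CPM per kb, and most of that difference was Sox2. The pEpiLC values were 17.7 ± 8.32 for SOXB1 and 40.7 ± 3.21 for SOXC.

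**Figure D3:**
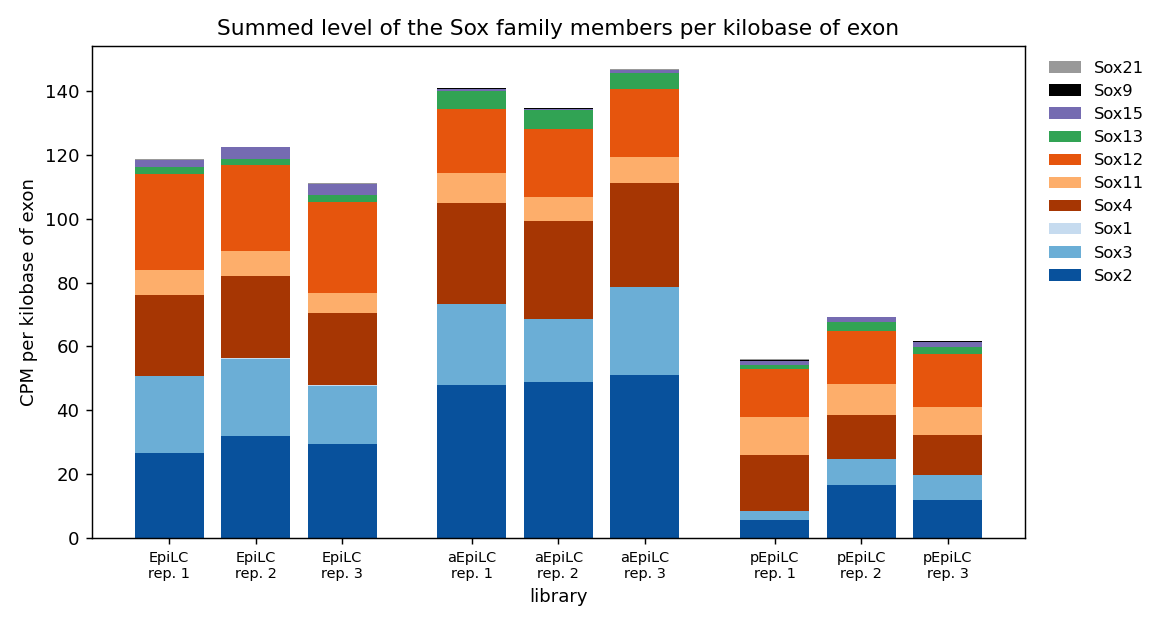
Summed level of the 10 members in each library, in CPM per kb of exon, stacked by gene with SOXB1 genes in blue and SOXC genes in orange and brown. The aEpiLC libraries total 134 to 147 and the pEpiLC libraries 56.1 to 69.3, and in pEpiLC replicate 1 the SOXB1 genes hold 15.3% of the sum.

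Within pEpiLC, replicate 1 differed from the other libraries in a direction that depended on the member. It had 2.72-fold less Sox3, 2.54-fold less Sox2 and 1.60-fold less Sox13 than the mean of replicates 2 and 3, but 1.34 times their Sox4, and Sox11 was also highest in this library. The coefficient of variation of Sox2 was 48.9% in pEpiLC, where counting error alone gives 4.38%, and 3.48% in aEpiLC. Beside these members, replicate 1 had 5.13 times the T and 35.8 times the Sox17 of replicates 2 and 3, where Sox17 is an endoderm SOX factor with 98 counts against 6 and 0. It had 2.39-fold less Nanog and 4.11-fold less Pou3f1. Summed CPM of 12 primitive streak and mesoderm markers ran from 717 to 3105 in pEpiLC and from 10.7 to 15.8 elsewhere, and 9 of 11 tested rose relative to aEpiLC (10 without replicate 1), beside 6.28% of all genes. For 6 definitive endoderm markers without Sox genes it ran from 37.5 to 140.3 in pEpiLC and from 2.11 to 3.17 elsewhere. In replicates 2 and 3 most of that sum was Foxa2 (38.3 CPM on average), the one gene of 4 tested that rose relative to aEpiLC. The part of these cell types in the Sox differences was not tested. The falls of Sox2, Sox3, Sox4, Sox12 and Sox13 relative to aEpiLC passed the limit without this library.

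Several neural markers were, like Sox2, higher in aEpiLC than in either other state, although Dcx was highest in pEpiLC. Zic1 and Hes5, both too low to be tested in these fits, averaged 0.230 and 0.292 CPM in aEpiLC against 0.456 and 0.281 CPM in EpiLC. Summed CPM of 9 measured neural progenitor markers without Sox genes was 83.2 to 112 in EpiLC, 295 to 339 in aEpiLC and 149 to 204 in pEpiLC, and nearly all of it was Nes (98.1, 311 and 183 CPM on average). Of the 3 tested, Pax6 and Nes rose in aEpiLC relative to EpiLC, where 24.0% of all genes rose, and both fell in pEpiLC relative to aEpiLC. The 4 neuronal markers tested, Tubb3, Map2, Elavl3 and Dcx, all rose in aEpiLC against the same background. Tubb3, Map2 and Elavl3 fell and Dcx rose in pEpiLC relative to aEpiLC, also without pEpiLC replicate 1, with sums of 166 to 185 CPM in aEpiLC and 33.6 to 47.0 CPM in pEpiLC. Neural crest markers summed to 35.0 to 45.6, 37.2 to 49.5 and 8.82 to 24.3 CPM in EpiLC, aEpiLC and pEpiLC. Most of that sum was Foxd3 (37.9, 41.8 and 4.37 CPM on average), which fell in pEpiLC, whereas Msx1 rose relative to EpiLC by a log2 fold change of 2.88, or of 0.85 without pEpiLC replicate 1, which held 22.1 CPM against a mean of 2.15 in replicates 2 and 3. Naive stem cell markers summed to 29.1 to 32.8, 15.4 to 15.7 and 22.4 to 27.1 CPM. Extraembryonic endoderm markers gave 84.8 to 94.9, 189 to 196 and 69.3 to 85.6 CPM, most of it Sparc (71.7, 159 and 62.2 CPM on average). Of the 5 tested, 3 rose in aEpiLC relative to EpiLC (Dab2, Sparc and Lama1), where 24.0% of all genes rose. Feeder fibroblast markers summed to 21.8 to 26.0, 24.2 to 27.2 and 16.2 to 34.0 CPM, and the 34.0 belonged to pEpiLC replicate 1. The part of these lists in the Sox values was not tested.

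Sox1 and Sox2 each lie inside a longer noncoding transcript of the same strand with which they share 0 exonic bases. Sox2ot (chr3:34104270-34682619) held 12, 7 and 15 counts in EpiLC, 20, 27 and 34 in aEpiLC and 8, 3 and 12 in pEpiLC. It rose in aEpiLC (log2 fold change 1.25, SE 0.371, adjusted p = 0.0138) and fell in pEpiLC relative to aEpiLC (-1.80, SE 0.482, adjusted p = 0.0432), the directions of Sox2. Between pEpiLC and EpiLC it gave -0.53 (adjusted p = 0.458). Without pEpiLC replicate 1 the differences were -1.86 from aEpiLC (adjusted p = 0.0313) and -0.59 from EpiLC. Sox1ot (chr8:12385771-12436768) held 5, 3 and 4 counts in EpiLC, 18, 14 and 10 in aEpiLC, and 1, 0 and 0 in pEpiLC. It rose in aEpiLC (1.78, SE 0.478, adjusted p = 0.00788), where Sox1 itself gave -0.32, and was too low for the test of all 3 pEpiLC libraries against either state. In the tests with aEpiLC, Sox1ot and Sox2ot passed the count filter through aEpiLC, where they were higher. Those p-values carry that selection. Against the floor of 3 counts per library, Sox1ot was at least 4.51-fold lower in pEpiLC than in aEpiLC. Without pEpiLC replicate 1 it was tested against aEpiLC and was lower (-6.84, adjusted p = 0.00229). The size of that value rests on 0 counts in pEpiLC replicates 2 and 3.

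**Figure D4:**
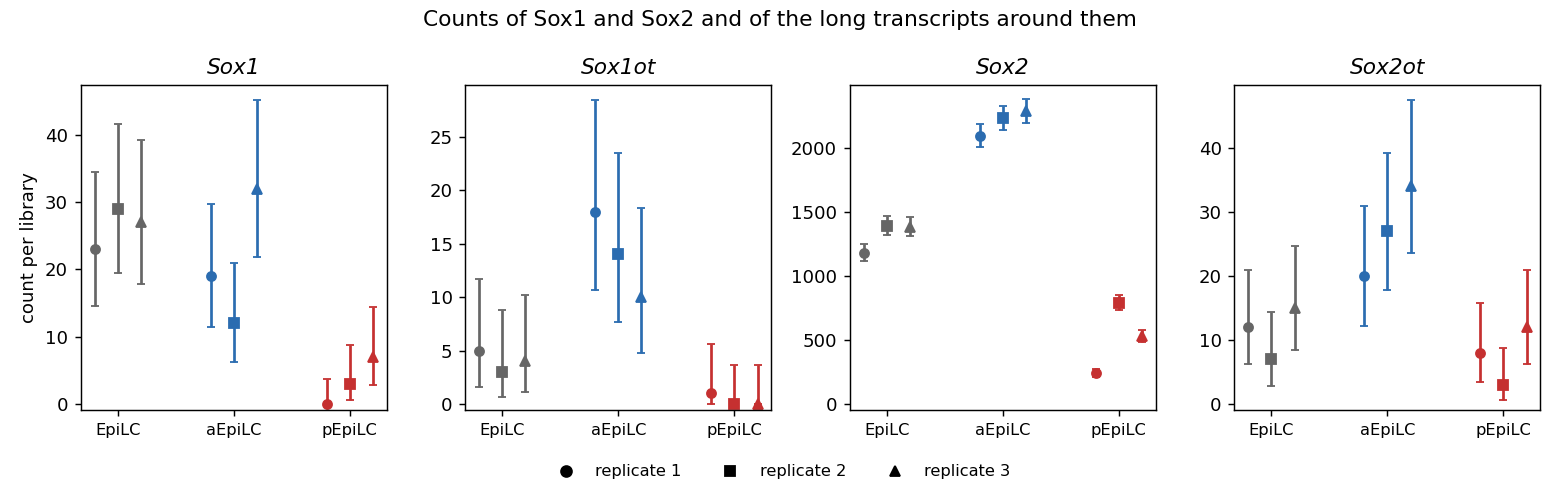
Counts per library (linear axes that differ between panels) of Sox1 and Sox2 and of the noncoding transcripts that span them, by state, with 95% Poisson intervals that cover counting error only. Sox2ot is highest in aEpiLC (20 to 34 counts), as is Sox2, while Sox1ot is higher in aEpiLC (10 to 18 counts) than in EpiLC (3 to 5 counts) and Sox1 overlaps between these states.

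Other Sox genes were sparse. Of 9 further members in the table, 3 were tested between pEpiLC and aEpiLC and none changed there, a number too small to set against the background of 9.30% of genes falling and 6.28% rising. Sox6, a SOXD gene like Sox13, rose in aEpiLC (log2 fold change 2.06, SE 0.497, adjusted p = 0.00415), with 3, 4 and 8 counts in EpiLC and 32, 16 and 15 in aEpiLC. Sox6 passed the count filter only through aEpiLC, so its p-value carries that selection. Sox18, an endothelial SOXF gene, was lower in aEpiLC (-1.20, SE 0.278, adjusted p = 0.00323) and pEpiLC (-1.19, SE 0.350, adjusted p = 0.0267) than in EpiLC, and the latter was -1.15 without pEpiLC replicate 1 (adjusted p = 0.0160).

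Of 6 POU-domain partners of SOX proteins, 4 were tested. Pou3f1 (OCT6), a POU factor of epiblast and neural ectoderm, was at 204, 203 and 32.2 CPM on average in EpiLC, aEpiLC and pEpiLC, and fell in pEpiLC relative to aEpiLC by 2.65 on the log2 scale (SE 0.455, adjusted p = 0.00964), or by 2.23 without pEpiLC replicate 1. Pou5f1, which encodes the partner of SOX2 in pluripotent cells, was at 1128, 934 and 954 CPM. It fell slightly in aEpiLC (-0.27, SE 0.0566, adjusted p = 0.00162). Between the derivatives Pou5f1 gave 0.03 (adjusted p = 0.886), where Sox2 gave -2.11. Without pEpiLC replicate 1 it gave 0.16 (adjusted p = 0.144), where Sox2 gave -1.78.

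Across the 9 libraries, which share their states and thus their large differences, the genes most like Sox2 among 10726 included Syt11 (Pearson r = 0.993), Tmem79 (0.990) and Kif5c (0.988). Syt11, a synaptotagmin of vesicle traffic, averaged 61.1, 130.3 and 18.4 CPM in EpiLC, aEpiLC and pEpiLC. The most opposite included Mtss2 (-0.987), Ifitm1 (-0.978), Ube2q1 (-0.974) and Lrp8 (-0.970). For Sox3 the most alike was Pou3f1 (0.993), for Sox4 Tmem181a (0.980), for Sox11 Nt5c2 (0.956), for Sox12 CN725425 (0.991) and for Sox13 Armcx1 (0.981). Sox12 ran most nearly opposite to Slit3 (-0.998), an axon guidance ligand, and to Kit (-0.996), a receptor tyrosine kinase. Among the members, Sox2 correlated with Sox3 at 0.947, with Sox4 at 0.817 and with Sox13 at 0.782, while Sox11 and Sox12 gave -0.812. These values describe likeness over 9 libraries only.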

How the data were processed

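RNA-seq was made from total RNA of 9 libraries, 3 per state, grouped by their labels. The authors mapped paired reads of 150 bp to GRCm38 with STAR 2.7.9a and deposited expected counts per gene symbol from RSEM 1.3.1. The gene annotation, read cleaning and strandedness are not given in the sources used here, and reads shared between overlapping genes may be split either way. The expected counts were rounded. Each pair of states was fitted on its 6 libraries with edgeR 4.0.16 in R 4.3.3, using TMM scaling, filterByExpr and the quasi-likelihood F test, with Benjamini-Hochberg adjustment over all genes tested and a limit of 0.05. CPM used TMM factors over all 9 libraries, and log2 CPM a prior count of 2. Lengths, coordinates and overlaps came from GENCODE vM21 on GRCm38, and promoters from RefSeq.

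Library totals of 20560564 to 23417917 counts set a floor of 3 counts per library, which covers counting error only. Every member of the family was named, with lists of other Sox genes, POU-domain partners, genes with a SOX-POU element and cell type markers, and the genes of highest and lowest correlation over genes with a mean of at least 5 CPM, some of which are not reported here. The members and lists were chosen with earlier results of these data known. Alternatives were RLE scaling, DESeq2 1.42.0, a likelihood ratio test, no filter or a stricter one of 10 counts, 1 fit of all 9 libraries, the replicate number as a block and leaving out each library.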

Additional observations from a re-analysis of the deposited data

Results flagged for a closer look

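Sox2 and Sox4 differed in their response between the derivatives. They were flagged because their opposite changes from EpiLC and the direct test all passed the limit. The direct p-values below were thus part of the choice and are not separate evidence. Sox2 rose from EpiLC to aEpiLC (log2 fold change 0.75) and fell from EpiLC to pEpiLC (-1.34), and the direct test between the derivatives gave -2.11 (SE 0.324, adjusted p = 0.00611, edgeR). Sox4 rose by 0.37 and fell by 0.72 on the same scale, and the direct test gave -1.11 (SE 0.123, adjusted p = 0.00151). All 3 pEpiLC libraries lay below all 3 aEpiLC libraries for both genes. The changes from EpiLC share the EpiLC libraries, so their opposite signs are not independent observations.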

How the results depend on the processing

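No member that passed the test changed direction under any alternative, and among those that did not pass, the sign turned for Sox13 and Sox21 between pEpiLC and EpiLC (Sox21 -0.13 without pEpiLC replicate 1). Counts of members that changed between pEpiLC and aEpiLC (5) ran from 3 to 6 when single libraries were left out, and those changed by 2-fold or more (4) from 3 to 5. Between pEpiLC and EpiLC the counts (7 and 4) ran from 4 to 7 and from 2 to 4, with both lowest values reached without EpiLC replicate 2. Between aEpiLC and EpiLC they were 5 and 2 whichever library was left out. With the replicate number as a block, 6, 5 and 7 members changed in pEpiLC against aEpiLC, aEpiLC against EpiLC and pEpiLC against EpiLC, and 5, 2 and 4 did so by 2-fold or more. Under the replicate block Sox1 passed between pEpiLC and aEpiLC (adjusted p = 0.0469). Same-numbered libraries correlated in their deviations at 0.0622 to 0.172 between pEpiLC and aEpiLC, 0.0153 to 0.0338 between pEpiLC and EpiLC, and -0.0601 to 0.0211 between aEpiLC and EpiLC. Every library correlated best with its own number between pEpiLC and aEpiLC. Between pEpiLC and EpiLC all did except EpiLC replicate 3, which gave 0.0155 with pEpiLC replicate 2 and 0.0153 with replicate 3. Between aEpiLC and EpiLC only the libraries numbered 1 did. No comparison had all its same-numbered correlations above 0.1 and the labels give the numbers no meaning, so they were not taken as pairs. Sox1 between these states also passed with DESeq2 (0.0267), the likelihood ratio test (0.00149) and 1 fit of 9 libraries (0.0187). Depth limits Sox1, Sox9, Sox15 and Sox21, which held 0 to 67 counts per library, and the cause of the spread in pEpiLC was not tested.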

Other observations

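Genes with a described SOX-POU element, the composite site bound by SOX2 and a POU factor, moved both ways. Fgf4, the classic SOX2 and OCT4 target and an epiblast ligand, averaged 101 CPM in EpiLC, 33.5 in aEpiLC and 4.12 in pEpiLC, and Utf1, a chromatin factor of pluripotent cells, 469, 317 and 76.2 CPM. Of the 8 listed genes, Fgf4, Utf1, Nes and Dppa4 fell and Nanog and Lefty1 rose in pEpiLC relative to aEpiLC (edgeR), with a median log2 fold change of -0.53 over the list and 0.01 over all genes, of which 9.30% fell and 6.28% rose. Without pEpiLC replicate 1, Fbxo15 and Zscan10 fell too, making 6, and the median was -0.77. Lefty1 averaged 248 CPM in EpiLC, 23.3 in aEpiLC and 183 in pEpiLC, and fell in aEpiLC relative to EpiLC (-3.42, adjusted p = 1.22e-05). Between pEpiLC and EpiLC it was not shown to change (-0.42, adjusted p = 0.304), and it fell without pEpiLC replicate 1 (-0.84, adjusted p = 0.000295). Nanog, a pluripotency factor, averaged 17.3, 19.4 and 202 CPM, so its log2 fold change of 3.38 (SE 0.383, adjusted p = 0.00169) was opposite in sign to that of Sox2 (3.70 without pEpiLC replicate 1). The ratio of Sox2 to Nanog CPM was 3.13 to 3.84 in EpiLC, 3.67 to 7.44 in aEpiLC and 0.0956 to 0.139 in pEpiLC. Nes, an intermediate filament of neural progenitors, averaged 98.1, 311 and 183 CPM and rose in aEpiLC by 1.67 on the log2 scale (adjusted p = 2.39e-08).

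Several Sox genes below the test filter had unequal counts between states. Sox14, a SOXB2 gene, held 0 counts in each EpiLC library, 12, 6 and 7 in aEpiLC and 3, 1 and 3 in pEpiLC. Sox5, a SOXD gene, held 1, 0 and 1 counts in EpiLC, 8, 10 and 8 in aEpiLC and 6, 2 and 3 in pEpiLC. Sox8, a SOXE gene, went the other way, with 17, 17 and 10 counts in EpiLC, 4, 4 and 3 in aEpiLC and 8, 2 and 8 in pEpiLC.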
